A study of Homo sapiens with 18 samples.

Results

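The genes described here encode secreted plasma proteins of the liver: 51 genes for carrier proteins, acute phase proteins, protease inhibitors, clotting factors, anticoagulants and complement. They were taken by symbol from a table of 61806 genes, in which all 51 were found, and the rule is a list of names that uses no measured value, although the list was drawn up with earlier results of these data known. The RNA came from HepG2, a human hepatoma cell line that still makes many hepatocyte products, and from APOA4-KO, a HepG2 line in which the gene of apolipoprotein A4 was cut with CRISPR-Cas9. The study's methods describe a pair of guides against exons of APOA4 and clones grown from single colonies, chosen for mutations in both alleles, and the sources used here do not say how many of these clones gave the RNA. A difference between the lines therefore holds the edit together with anything else in which the edited cells differ from their parent. Both lines were sampled before hypoxia (0 h, 21% oxygen) and 24 h or 48 h into culture at 1% oxygen, and Poly(A) RNA was sequenced from 3 libraries in each of the 6 groups. The later times have no matched cultures at 21% oxygen here, and hypoxia and time in culture cannot be told apart in a change from 0 h. The labels do not say that the 3 libraries of a group came from separate cultures, and the p-values below then measure the spread between these libraries only.

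Hepatocytes release most of the proteins of blood plasma. Albumin, transthyretin and retinol-binding protein carry hormones, lipids and vitamins. The clotting factors act as a chain of proteases that ends with thrombin cutting fibrinogen into fibrin, and serpins, protein C and protein S hold that chain back while plasmin dissolves the clot. Complement proteins mark and perforate microbes. In the acute phase response, interleukin-6 acts on hepatocytes through STAT3, and fibrinogen, haptoglobin, antichymotrypsin, C-reactive protein and serum amyloid A are made in larger amounts while transthyretin and other carriers fall. HepG2 cells also make alpha-fetoprotein, the fetal counterpart of albumin.

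The 18 libraries held 76481820 to 91604947 counts each. Counts of 4, 8 and 12 were over-represented in every library, by ratios of 1.58 to 3.12 over the mean of the values just below and above them, so a count need not be a single read pair and small counts carry less information than they seem to. A library at 12 counts or fewer was therefore treated as lying at the floor. All 12 hepatocyte and hepatoma markers exceeded a mean of 1 FPKM (fragments per kilobase of transcript, scaled to library depth). Of the 8 monocyte and macrophage markers, lysozyme (LYZ) had a mean of 1020 FPKM, CD68 of 20.2 and CD14 of 3.46 FPKM. The others, PTPRC, CSF1R, ITGAM, SPI1 and AIF1, had means of 0.23, 0.0178, 0.0728, 0.14 and 0.471 FPKM. The sum of 8 monocyte and macrophage markers, which is nearly all LYZ, ran from 621 to 627 FPKM in HepG2 at 0 h and from 1451 to 1492 FPKM in APOA4-KO at 48 h. The 6 fibroblast markers summed to at most 7.11 FPKM and the 5 endothelial ones to at most 1.63 FPKM in any library.

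The targeted gene was still read in the edited line. APOA4 stood at 8.95, 9.67 and 8.46 CPM (counts scaled to library depth, here with TMM factors) in HepG2 at 0 h and at 8.35, 7.8 and 6.99 CPM in APOA4-KO. The difference was -0.23 ± 0.08 on the log2 scale (± gives the standard error here and for all log2 values, adjusted p = 0.04). At 24 h the means were 20.2 and 7.94 CPM (log2 fold change -1.35 ± 0.08), and at 48 h they were 20.1 and 8.21 CPM (-1.29 ± 0.08). A count over the whole gene does not show whether its targeted exons are intact.

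Plasma protein genes took 7.44% to 9.84% of all counts. The share rose in both lines from 0 h to 24 h and was lower again at 48 h: in HepG2 it was 7.48% ± 0.040 (SD, n = 3), 8.94% ± 0.017 and 7.70% ± 0.032, and in APOA4-KO 8.18% ± 0.036, 9.79% ± 0.084 and 8.81% ± 0.12. The ranges of the 3 libraries did not overlap between the lines at any time, with APOA4-KO on the higher side. The 5 genes ALB, AHSG, SERPINA1, A2M and C3, named here after their values were seen, held 73.2% to 81.3% of these counts. Protease inhibitors and carriers were the largest groups, each with 2.57% to 4.12% of a library, followed by complement with 0.933% to 1.36%. The 13 clotting genes took 0.324% to 0.360% of the libraries of HepG2 and 0.468% to 0.758% of those of APOA4-KO.

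**Figure D1:**
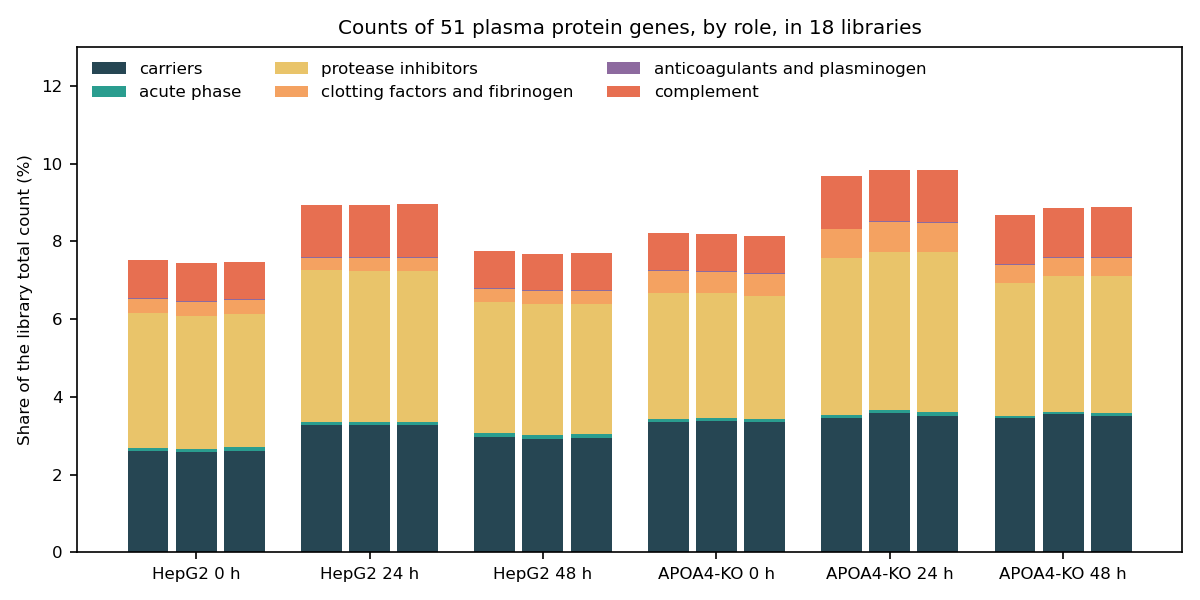
Stacked bars give the share of the library total count (%) that falls on each role group of the 51 genes, for each of the 18 libraries in 6 groups of line and time. Replicates of a group nearly coincide, and the 24 h bars are the tallest in both lines (means of 8.94% in HepG2 and 9.79% in APOA4-KO).

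By length-scaled level, 50 of the 51 genes had an FPKM value, of which 19 had a mean of at least 100 FPKM and 41 had at least 1 FPKM. ALB (albumin) led with 4856 FPKM over the 18 libraries, followed by AHSG (fetuin-A, an inhibitor of mineral deposition) with 4555 and SERPINA1 (alpha-1 antitrypsin, the main inhibitor of neutrophil elastase) with 3014 FPKM. They ranked 8, 11 and 13 among the 33601 genes with an FPKM value. At the other end, CRP (C-reactive protein) had 0 counts in all 18 libraries, which allows up to 12 counts in each at the floor set above. C9, the last component of the complement pore, had 6 counts in 1 library and 0 in 17, and F9 (clotting factor IX) never exceeded 15 counts. These 3 genes did not pass the filter on low counts, and 48 of the 51 were tested. SAA1 and SAA2 (serum amyloid A) passed it with at most 62 and 42 counts, and they did not differ between the lines at the adjusted p at any time (lowest adjusted p = 0.082). Their transcripts share 37.2% and 18.2% of their 100-base words with other genes.

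Counts were compared between groups with edgeR's quasi-likelihood test, fitted to all 19743 genes that passed the filter and all 18 libraries, with Benjamini-Hochberg adjustment over these genes. A gene is said to pass both limits where its log2 fold change reaches 1 in either direction with adjusted p below 0.05. The tested members had a median of 17242 counts per library and all tested genes a median of 494, so that small differences reach a low adjusted p more easily among the members, and their shares below are not matched for level.

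The lines were compared at each time. At 0 h, 9 of the 48 tested genes passed both limits, all of them higher in APOA4-KO (18.8%, beside 4.31% of all genes tested, 2.65% higher and 1.66% lower). At 24 h there were 12, again all higher (25%, beside 7.77%, 4.5% higher and 3.28% lower). At 48 h 9 were higher and 2 lower (22.9%, beside 13.6%, 6.37% higher and 7.18% lower). Without SAA1, SAA2, KLKB1, ITIH4 and PLG, 5 genes of low or uneven counts, the counts were 7, 10 and 9. At the adjusted p alone, 27 genes were higher in APOA4-KO and 10 lower before hypoxia, 27 higher and 12 lower after 24 h, and 36 higher and 7 lower after 48 h. The higher ones were 56.2%, 56.2% and 75% of the members, beside 12.9%, 23.6% and 23.5% of all genes. The lower ones were 20.8%, 25% and 14.6%, beside 17.6%, 24.6% and 27.3%. The median log2 fold change over the tested members was 0.25, 0.54 and 0.53, beside -0.01, 0.01 and -0.04 over all genes. The split at 48 h hangs on the scaling. With libraries scaled by their totals alone it was 30 higher and 9 lower, with a median of 0.38. The same scaling gave 29 higher and 9 lower at 0 h and again at 24 h, with medians of 0.28 and 0.60. The 3 comparisons do not share libraries. The genes past both limits at all 3 times numbered 7: AFP, TTR, SERPING1, ITIH1, FGB, PLG and C8A, all higher in APOA4-KO (14.6%, beside 0.866% of all genes higher and 0.552% lower at all 3 times). At the adjusted p, 18 genes were higher at every time (37.5%, beside 6.72% of all genes). Among these, SERPINA3 at 0 h missed the adjusted p in 7 of 17 alternative fits and ALB at 48 h in 3 of 17. ORM1, ORM2, SERPINF2 and KNG1 were lower at every time (8.33%, beside 9.66%).

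**Figure D2:**
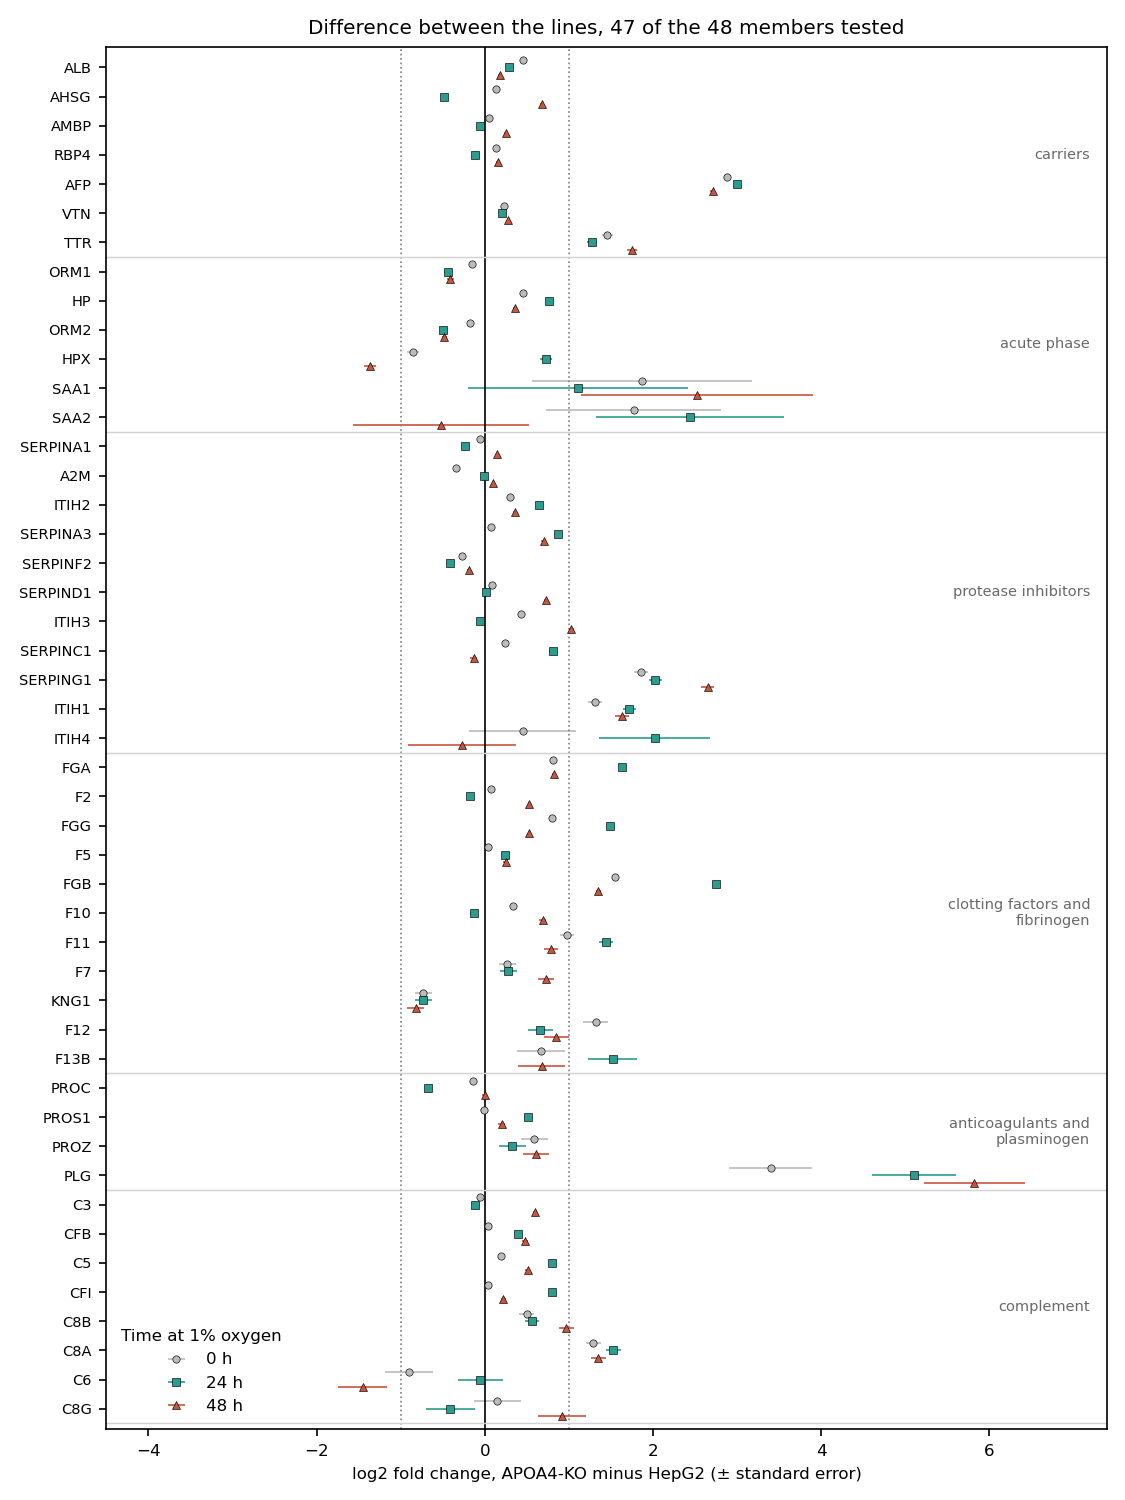
Points give the log2 fold change of APOA4-KO minus HepG2 with its standard error for 47 genes by role, at 0 h (circles), 24 h (squares) and 48 h (triangles); dotted lines mark a log2 fold change of 1 in either direction, and KLKB1, with 0 counts in all libraries of 2 groups, is left out. AFP (2.88, 3.00 and 2.71) and PLG (3.40, 5.11 and 5.82) lie furthest to the right.

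Among the carriers, alpha-fetoprotein and transthyretin set the lines apart, while albumin differed little. AFP read 128, 133 and 130 CPM in HepG2 at 0 h and 949, 952 and 967 CPM in APOA4-KO. At 24 h it read 190, 189 and 181 CPM against 1450, 1539 and 1492, and at 48 h 163, 150 and 155 CPM against 1000, 1037 and 1027. Every APOA4-KO library thus lay far above every HepG2 library of its time, with log2 fold changes of 2.88 ± 0.03, 3.00 ± 0.03 and 2.71 ± 0.03 (adjusted p = 7.4e-21, 1.9e-21 and 2e-21). TTR, the carrier of thyroxine and of retinol-binding protein, read 50.8, 49.9 and 50 CPM in HepG2 at 0 h and 141, 140 and 132 CPM in APOA4-KO. Its log2 fold changes were 1.46 ± 0.06, 1.28 ± 0.06 and 1.75 ± 0.06 at the 3 times.

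The albumin gene lies 9.73 kb from AFP on chromosome 4, on the same strand. ALB read 14087, 13808 and 14144 CPM in HepG2 at 0 h and 19080, 19258 and 19087 CPM in APOA4-KO (log2 fold change 0.45 ± 0.02, adjusted p = 1e-12). The difference was 0.29 ± 0.02 at 24 h and 0.18 ± 0.02 at 48 h. When libraries were scaled by their totals alone, the 48 h value of ALB was 0.03. These neighbours differed between the lines by unequal amounts.

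The remaining carriers differed by less. AHSG read 7434, 7404 and 7549 CPM in HepG2 and 8216, 8178 and 8046 in APOA4-KO at 0 h. At 24 h the order was turned, with 14117, 14067 and 14007 CPM in HepG2 and 10027, 9940 and 10383 in APOA4-KO, and at 48 h it turned back, with 8794, 8593 and 8624 CPM against 13564, 14213 and 14013. The groups did not overlap at any time, and the log2 fold changes were 0.13 ± 0.02, -0.48 ± 0.02 and 0.68 ± 0.02. VTN (vitronectin, an adhesion protein of plasma) was higher in APOA4-KO by 0.23, 0.20 and 0.28. RBP4 (retinol-binding protein) differed by 0.14, -0.11 and 0.16, and AMBP (the precursor of alpha-1 microglobulin and bikunin) by 0.05 (adjusted p = 0.089), -0.05 and 0.25. The 24 h value of AMBP changed sign with library totals alone.

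Of the 11 protease inhibitors, SERPING1 and ITIH1 passed both limits at every time. SERPING1, the C1 inhibitor that restrains complement and the contact system, read 16.3, 18.7 and 15.7 CPM in HepG2 at 0 h and 60.7, 62.5 and 61 CPM in APOA4-KO. At 48 h it read 16, 13.6 and 12.5 CPM against 82.1, 94.9 and 86.7. The lines stood well apart each time, with log2 fold changes of 1.86 ± 0.08, 2.03 ± 0.08 and 2.65 ± 0.08 at the 3 times. ITIH1, a heavy chain of the inter-alpha inhibitors that are bound to hyaluronan, read 13.8, 14.8 and 13.4 CPM in HepG2 and 33.2, 36.8 and 33.6 CPM in APOA4-KO at 0 h. Its log2 fold changes were 1.31 ± 0.08, 1.72 ± 0.08 and 1.63 ± 0.08.

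ITIH1, ITIH3 and ITIH4 lie within a few kilobases of each other on chromosome 3 (2.70 kb from ITIH1 to ITIH3 and 3.97 kb from ITIH3 to ITIH4). Unlike ITIH1, ITIH3 differed unevenly. Its log2 fold change was 0.43 ± 0.03 at 0 h, -0.05 ± 0.03 at 24 h (adjusted p = 0.16) and 1.03 ± 0.03 at 48 h, where it read 581, 553 and 559 CPM in HepG2 and 1157, 1180 and 1120 CPM in APOA4-KO. Scaled by library totals alone, the 48 h value was 0.88, under the limit of 1. ITIH4 had uneven counts, with 95, 189 and 468 counts in HepG2 at 0 h and 472, 546 and 29 counts in APOA4-KO. It passed both limits at 24 h (log2 fold change 2.02 ± 0.66, adjusted p = 0.016), with 105, 298 and 139 counts in HepG2 and 856, 594 and 665 in APOA4-KO. A read-through gene shares 78.3% of the 100-base words of its transcript, and with the counts of that gene added the value was 0.87, under the limit.

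The abundant inhibitors differed modestly. SERPINA1 read 13529, 13369 and 13346 CPM in HepG2 and 13132, 12826 and 12543 CPM in APOA4-KO at 0 h (log2 fold change -0.06 ± 0.02, adjusted p = 0.016). This 0 h difference missed the adjusted p in 8 of 17 alternative fits, DESeq2 among them. At 24 h the values were 17962, 17933 and 18004 CPM against 15014, 15189 and 15871 (-0.23 ± 0.02), and at 48 h 14907, 14816 and 14739 against 15953, 16482 and 16802 (0.15 ± 0.02). The difference at 48 h was 0 with library totals alone. A2M (alpha-2 macroglobulin, which traps proteases of many kinds) was lower in APOA4-KO at 0 h by a log2 fold change of -0.34 ± 0.01, and its 48 h difference of 0.10 turned negative with library totals alone. SERPINF2, the main inhibitor of plasmin, was lower in APOA4-KO at all 3 times (-0.27, -0.41 and -0.19). SERPIND1 (heparin cofactor II, an inhibitor of thrombin) differed by 0.09 at 0 h and 0.73 at 48 h, and SERPINC1 (antithrombin) by 0.24, 0.81 and -0.13.

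The fibrinogen genes were higher in APOA4-KO, most of all at 24 h. They encode the 3 chains of fibrinogen and lie together on chromosome 4, FGB 12 kb from FGA and FGA 13.4 kb from FGG. FGB (beta chain, chr4:154562956-154571086) read 101, 101 and 100 CPM in HepG2 and 297, 295 and 290 CPM in APOA4-KO at 0 h. At 24 h it read 118, 126 and 129 CPM against 828, 852 and 823, and at 48 h 107, 105 and 104 against 262, 271 and 269. All APOA4-KO libraries lay above all HepG2 libraries, and the log2 fold changes were 1.55 ± 0.03, 2.75 ± 0.03 and 1.35 ± 0.03 (adjusted p = 1.7e-17, 2.1e-21 and 1.2e-17).

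FGA (alpha chain, chr4:154583126-154590766) read 1442, 1456 and 1445 CPM in HepG2 and 2558, 2506 and 2549 CPM in APOA4-KO at 0 h. At 24 h the values were 1152, 1181 and 1195 against 3592, 3716 and 3640 CPM, and at 48 h 1246, 1247 and 1243 against 2136, 2228 and 2216. Its log2 fold changes were 0.81 ± 0.02, 1.63 ± 0.02 and 0.82 ± 0.02, past both limits at 24 h. FGG (gamma chain, chr4:154604134-154612967) read 612, 607 and 597 against 1059, 1054 and 1046 CPM at 0 h, 440, 453 and 464 against 1220, 1317 and 1284 CPM at 24 h, and 532, 536 and 542 against 780, 767 and 771 CPM at 48 h. Its log2 fold changes were 0.80 ± 0.02, 1.49 ± 0.02 and 0.53 ± 0.02. All 3 chains had their largest difference at 24 h, and by FPKM the beta chain was the least read of them (means of 511 for FGA, 214 for FGG and 64.7 for FGB over the 18 libraries).

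Sequence upstream of the first start that RefSeq lists for FGB and FGA (GRCh38.p14) is shown because these neighbours differed between the lines in 1 direction. The stretches begin 150 bases before that start and end where the first annotated exon of GENCODE v29 begins. Capitals mark TTGAGCAA, a match to TTGNNCAA, a core word of the site of the C/EBP factors, searched on both strands.

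FGB, chr4:154562830-154562955, plus strand: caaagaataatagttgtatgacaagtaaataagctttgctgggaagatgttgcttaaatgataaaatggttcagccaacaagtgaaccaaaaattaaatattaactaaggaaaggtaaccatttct
FGA, chr4:154590767-154590892, minus strand: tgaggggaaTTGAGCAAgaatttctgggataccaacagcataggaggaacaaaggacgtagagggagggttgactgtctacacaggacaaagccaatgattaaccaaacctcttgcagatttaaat

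The match in FGA stood from 141 to 134 bases before the start, and the printed stretch of FGB held none of the words counted below. Both printed stretches hold attaac, which reads GTTAAT on the other strand, a word of the liver factor HNF1. That word is not marked in capitals and was not counted over the promoters. The window of FGG lies in an annotated exon and is not shown. A promoter was found in the RefSeq table for 39 of the 51 genes. TTGNNCAA stood in 5 of these 39 members (12.8%), FGA and FGB among them, and in 5.55% of 35116 promoters in all. The windows ran from 250 bases before the start to 50 bases after it. A member was counted by its first listed start and the whole by every listed promoter, so the shares are not matched. Of the other words, AAAGTCC (HNF4) stood in 12.8% of the members and 3.71% of all promoters, and TTCNNNGAA (STAT) in 25.6% and 7.66%. The cores of the hypoxia response element, ACGTG and GCGTG, stood in 7.69% and 23.1% of the members and in 21.4% and 36.5% of all promoters. The words ACGTG and GCGTG overlap in their last 4 letters, and a match of letters is a description and not a bound site.

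The other clotting factors differed unevenly between the lines. F2 (prothrombin), F5, F7 and F10 differed by at most 0.73 on the log2 scale at all times, and at 48 h each was higher in APOA4-KO (0.53, 0.25, 0.73 and 0.69). F12, the first enzyme of the contact pathway, passed both limits at 0 h, with 4.39, 3.22 and 4.95 CPM in HepG2 and 12.1, 10.9 and 8.53 CPM in APOA4-KO (log2 fold change 1.32 ± 0.15, adjusted p = 1.5e-06). F11, the next enzyme of that pathway, passed them at 24 h, with 14.2, 16.6 and 18.7 against 44.3, 44.9 and 45.1 CPM (1.44 ± 0.08), and so did F13B, the carrier subunit of the factor that cross-links fibrin, with 76, 68 and 59 against 176, 194 and 204 counts (1.52 ± 0.29). KNG1 (kininogen, the source of bradykinin) was lower in APOA4-KO throughout, by log2 fold changes of -0.73, -0.73 and -0.82. KLKB1 (plasma prekallikrein) was at 0 counts in every 0 h and 48 h library of HepG2. APOA4-KO had 26, 31 and 26 counts at 0 h, at least 2.25-fold higher when 12 counts a library are taken as the floor. At 48 h APOA4-KO had 21, 19 and 0 counts, at least 1.35-fold higher on the same floor.

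Plasminogen showed the largest fold among the anticoagulant and fibrinolytic genes, from low counts. PLG, the precursor of plasmin, had 16, 25 and 29 counts in HepG2 at 0 h and 188, 269 and 310 in APOA4-KO. At 24 h it had 44, 25 and 28 counts against 1196, 1043 and 1092, and at 48 h 0, 0 and 16 counts against 196, 283 and 277. All APOA4-KO libraries were above all HepG2 libraries, with fitted log2 fold changes of 3.40 ± 0.49, 5.11 ± 0.50 and 5.82 ± 0.60. The 48 h value rests on counts at or near 0 in HepG2 and lay between 0.51 and 11.15 over the alternatives, where 0.51 came from log2(FPKM + 1). With the 2 libraries at 0 counts raised to the floor, a setting added after the values were seen, it was 4.53. Of the 100-base words of its transcript, 1.25% occur in transcripts of other genes. PROC (protein C, which inactivates factors V and VIII) was lower in APOA4-KO at 24 h by -0.67 ± 0.03 and PROS1 (protein S, its cofactor) higher by 0.51 ± 0.04. PROZ (protein Z) was higher at 0 h and 48 h by 0.59 and 0.61.

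In the complement group, C8A passed both limits at all times and C6 at 48 h. C8A and C8B, chains of the eighth component that lie 11 kb apart on chromosome 1 on opposite strands, were both higher in APOA4-KO. C8A read 6.49, 6.07 and 7.94 CPM in HepG2 and 16.3, 17.5 and 16.1 CPM in APOA4-KO at 0 h, with log2 fold changes of 1.29 ± 0.09, 1.53 ± 0.09 and 1.35 ± 0.09. For C8B they were 0.50, 0.56 and 0.97 (adjusted p = 0.00014, 1.3e-05 and 1.3e-08). C6, another part of the pore, had 155, 144 and 165 counts in HepG2 at 48 h and 69, 44 and 25 in APOA4-KO (-1.45 ± 0.29, adjusted p = 0.00027). C3, the protein on which all complement pathways meet, was nearly level at 0 h and 24 h (-0.05 and -0.11) and read 8536, 8367 and 8380 CPM against 12395, 12856 and 12998 at 48 h (0.60 ± 0.02). C5 was higher in APOA4-KO at the 3 times by 0.19, 0.80 and 0.51. CFI (factor I, which cleaves C3b) differed by 0.80 and CFB (factor B) by 0.40 at 24 h. Read-through genes share 71.1% and 77.9% of the words of these transcripts, and with their counts added the values were 0.82 and 0.36.

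The 7 genes grouped here as acute phase did not move as 1 group. Fibrinogen and SERPINA3, named above as acute phase proteins too, were placed in other groups. FGA, FGB, FGG and SERPINA3 were higher in APOA4-KO at all 3 times at the adjusted p, SERPINA3 by only 0.07 at 0 h. That 0 h value of SERPINA3 missed the adjusted p in 7 of 17 alternatives. HP (haptoglobin, which binds free hemoglobin) was higher in APOA4-KO by 0.46, 0.77 and 0.36, whereas ORM1 and ORM2 (orosomucoids) were lower, ORM1 by -0.15, -0.44 and -0.41. The transcripts of ORM1 and ORM2 share 33.7% and 35.9% of their 100-base words with each other, and that of HP 12.9% with HPR, so their counts are uncertain where reads fall on those stretches. HPX (hemopexin, which binds free heme) changed sides. It read 44.5, 43.6 and 44.1 CPM in HepG2 and 24.6, 27.1 and 21.6 CPM in APOA4-KO at 0 h, 18.2, 17.2 and 17.9 against 30.9, 29.1 and 28.4 CPM at 24 h, and 34.3, 38.5 and 35 against 12.8, 14.2 and 14.8 CPM at 48 h. The groups did not overlap at any time, and the log2 fold changes were -0.85 ± 0.07, 0.73 ± 0.07 and -1.36 ± 0.07.

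The change with hypoxia was then followed within each line. From 0 h to 24 h in HepG2, 25 of the 48 genes rose and 9 fell at the adjusted p, and 2 rose and 1 fell past both limits (6.25%, beside 3.08% of all genes, 2.06% higher and 1.02% lower). Of all genes, 11.4% rose and 18.3% fell at the adjusted p. In APOA4-KO 27 rose and 7 fell, and 3 rose past both limits (6.25%, beside 5.88%, 3.69% higher and 2.19% lower), where 21.5% of all genes rose and 22.8% fell at the adjusted p. The lines share no libraries, and 17 genes rose in both (35.4%, beside 7.02% of all genes). SERPINC1, SERPINF2 and KNG1 fell in both (6.25%, beside 11.9%). From 0 h to 48 h, 1 gene passed both limits in HepG2 (2.08%, beside 2.18%, 1.41% higher and 0.765% lower). None did in APOA4-KO (0%, beside 12.2%, 5.34% higher and 6.85% lower), where edgeR gave 37 genes an unadjusted p under 0.05 and DESeq2 made 1 call. At the adjusted p, 8 rose and 17 fell in HepG2 over 48 h, and 23 rose and 12 fell in APOA4-KO. Of all genes, 13.1% rose and 14.6% fell in HepG2, and 23.9% rose and 25.9% fell in APOA4-KO. These splits hang on the scaling: with library totals alone they were 13 and 16 in HepG2 and 15 and 19 in APOA4-KO. From 24 h to 48 h, 1 gene rose and 2 fell past both limits in HepG2 (6.25%, beside 2.12%, 0.689% higher and 1.43% lower), and 1 rose and 5 fell in APOA4-KO (12.5%, beside 5.66%, 2.02% higher and 3.64% lower). At the adjusted p, 11 rose and 26 fell in HepG2, where 18.7% of all genes rose and 11.9% fell. In APOA4-KO 13 rose and 24 fell, where 21.9% of all genes rose and 19.4% fell. For the values at 48 h in APOA4-KO, library totals alone moved the median of all genes by -0.16 against 0 h and by -0.15 against HepG2.

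**Figure D3:**
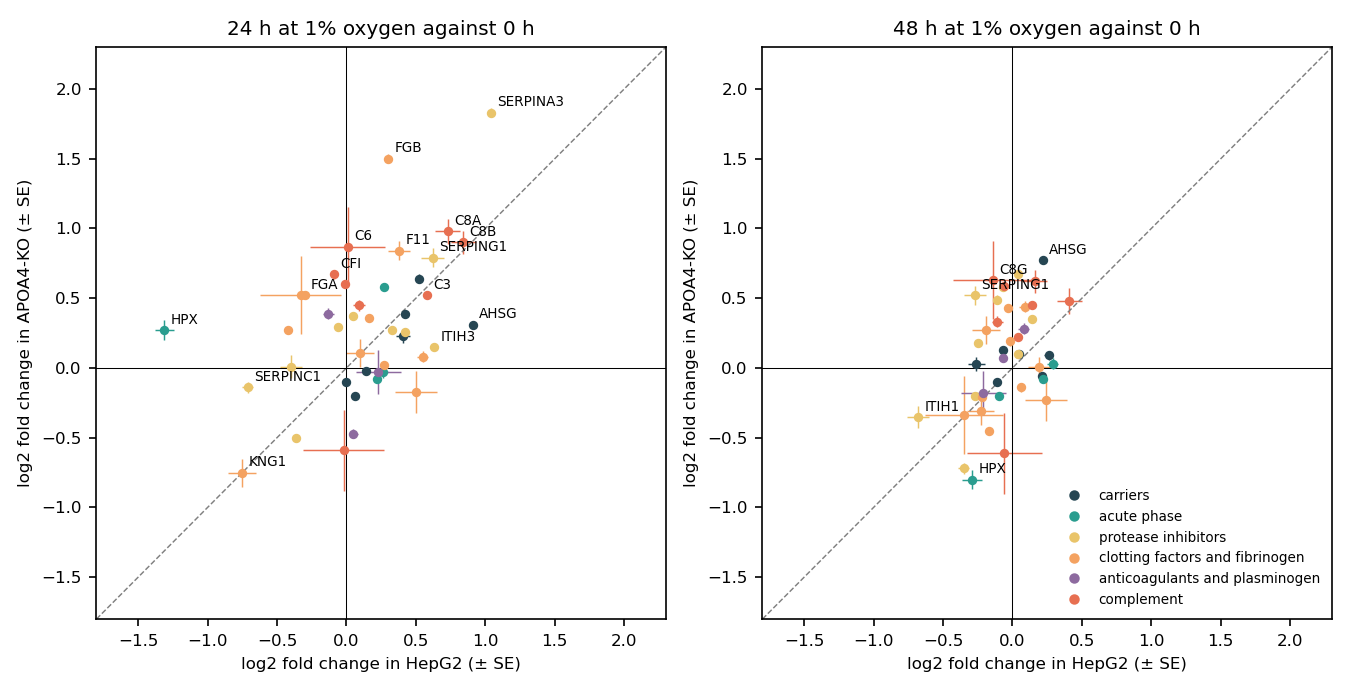
Each point is a gene, with its log2 fold change from 0 h in HepG2 on the x axis and in APOA4-KO on the y axis (bars are standard errors), at 24 h on the left and 48 h on the right, coloured by role; the dashed line marks equal change, and 5 genes of low or uneven counts are left out. SERPINA3 (1.04 and 1.83) and FGB (0.30 and 1.5) lie highest at 24 h, and HPX (-1.31 and 0.27) lies furthest left.

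SERPINA3 (antichymotrypsin, an acute phase inhibitor of cathepsin G) rose in both lines and came down again. In HepG2 it read 1132, 1099 and 1087 CPM before hypoxia, then 2265, 2293 and 2252 CPM after 24 h, then 1150, 1108 and 1158 CPM after 48 h. In APOA4-KO the same times gave 1153, 1158 and 1178 CPM, then 4020, 4064 and 4363 CPM, then 1799, 1890 and 1850 CPM. The lines nearly coincided at 0 h, and the log2 fold changes from 0 h to 24 h were 1.04 ± 0.03 and 1.83 ± 0.03 (adjusted p = 7.6e-16 and 1.8e-19). The HepG2 value was as low as 0.96 over the alternatives and crossed the limit of 1 in 3 of 17 of them. A read-through gene shares 55.6% of the words of the SERPINA3 transcript and held 6.81% to 12.3% of their joint counts, and with it added the values were 1.04 and 1.84.

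FGB rose with hypoxia in APOA4-KO by 1.5 ± 0.03 on the log2 scale at 24 h and fell by 1.64 from 24 h to 48 h, whereas in HepG2 the 24 h change was 0.30 ± 0.03. FGA and FGG rose in APOA4-KO at 24 h (0.52 and 0.27) and fell in HepG2 (-0.30 and -0.42), and from 24 h to 48 h they fell in APOA4-KO by 0.73 and 0.72. PLG had a 24 h log2 fold change of 2.20 ± 0.43 in APOA4-KO and then fell by 1.99. In HepG2 it was the 1 gene past both limits from 0 h to 48 h (adjusted p = 0.018), with the counts given above, and it missed them in 6 of 17 alternatives. The fitted log2 fold change was -2.21 ± 0.67, and with the 2 libraries at 0 counts raised to the floor of 12 the value was -0.91, under the limit. KLKB1 passed both limits from 0 h to 24 h in HepG2 with 0, 4 and 17 counts at 24 h, and no fold is given at that depth. HPX fell in HepG2 at 24 h by 1.31 ± 0.07 and rose by 1.02 from 24 h to 48 h, a value that missed the limits in 7 of 17 alternatives. In APOA4-KO it changed by 0.27 at 24 h and fell by 1.08 from 24 h to 48 h.

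**Figure D4:**
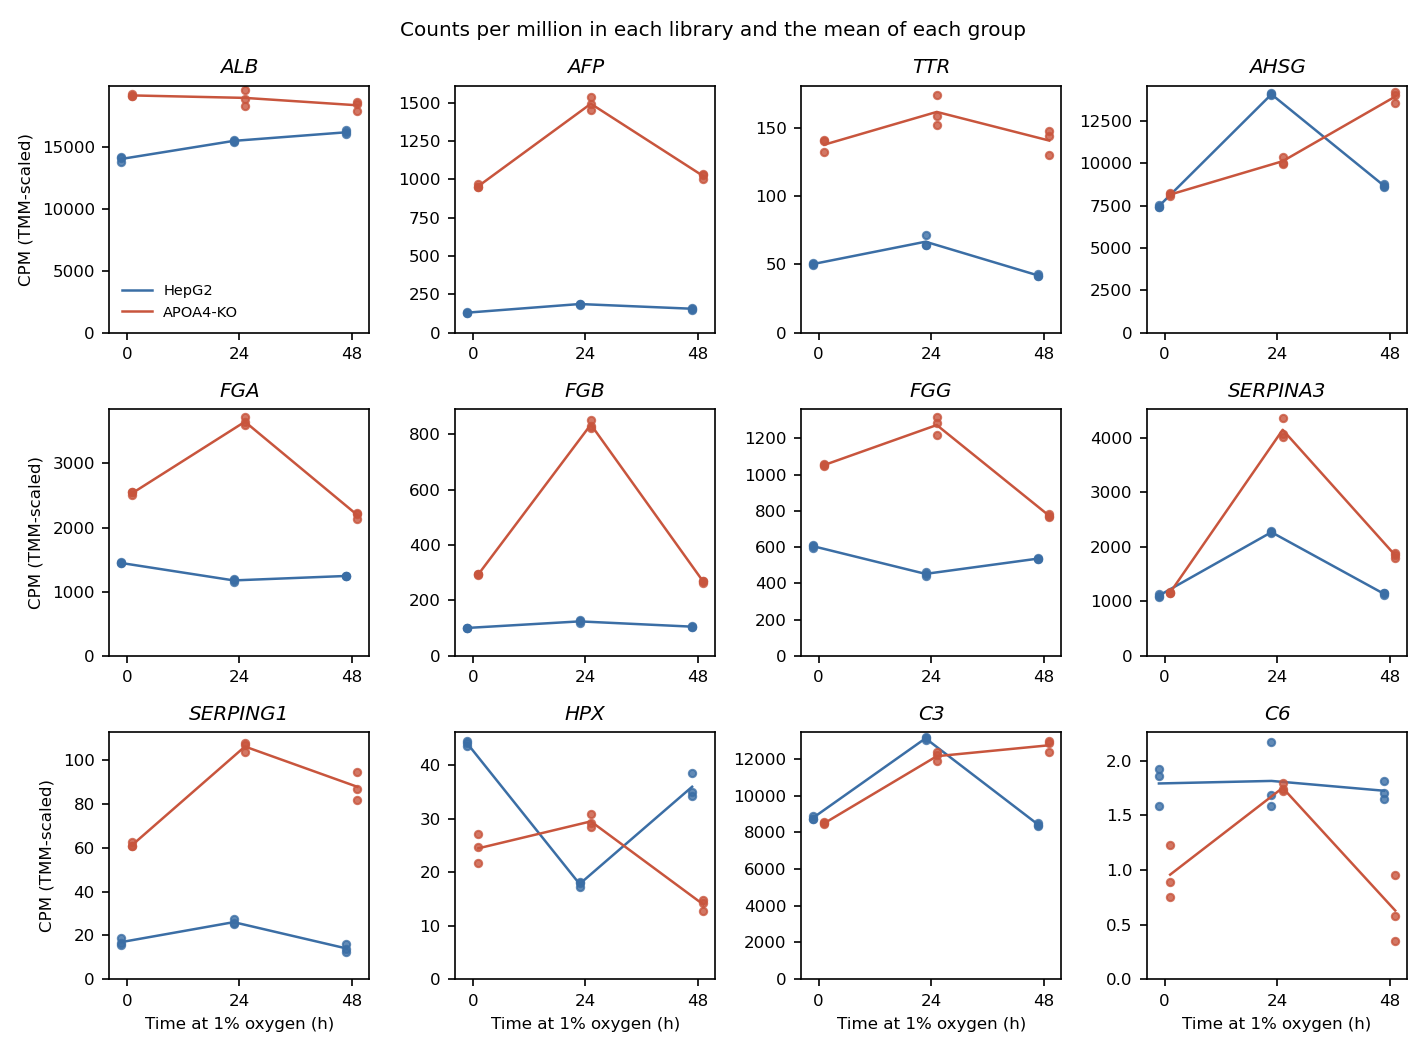
Points are the CPM of single libraries and lines join the means of 3 libraries, for 12 genes in HepG2 (blue) and APOA4-KO (red) at 0 h, 24 h and 48 h of 1% oxygen; each vertical axis starts at 0. FGA, FGB and SERPINA3 peak at 24 h in APOA4-KO, while AHSG peaks at 24 h in HepG2 and is highest at 48 h in APOA4-KO.

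AHSG and C3 took different courses in the lines after 24 h. AHSG rose in HepG2 by 0.91 ± 0.02 at 24 h and fell by 0.70 from 24 h to 48 h, while in APOA4-KO it rose by 0.31 and then by 0.46. C3 rose by 0.58 at 24 h in HepG2 and fell by 0.64, while in APOA4-KO it rose by 0.52 and its further change of 0.07 turned negative with library totals alone. The share of counts on complement genes stood at 1.34% in both lines at 24 h and at 0.939% ± 0.0079 in HepG2 and 1.27% ± 0.020 in APOA4-KO at 48 h. SERPINA1 rose at 24 h by 0.42 in HepG2 and 0.26 in APOA4-KO. ALB changed by 0.14 at 24 h in HepG2 and by -0.02 in APOA4-KO (adjusted p = 0.57). All complement genes tested other than C8G rose at 24 h in APOA4-KO at the adjusted p (7 of 8, beside 21.5% of all genes), and 3 of 8 did in HepG2 (beside 11.4%). The difference between these counts was not tested.

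Whether the lines changed unequally was tested as the difference of their changes. At 24 h 17 genes had a larger log2 change in APOA4-KO and 15 a smaller one at the adjusted p, and 2 passed both limits (4.17%, beside 2.59% of all genes, 1.41% larger and 1.19% smaller): HPX with a difference of 1.58 ± 0.10 (adjusted p = 1e-09) and FGB with 1.2 ± 0.04 (1.2e-13). Among the others past the adjusted p were FGA (0.82 ± 0.02), SERPINA3 (0.80 ± 0.04), CFI (0.76 ± 0.05), FGG (0.69 ± 0.03) and C5 (0.61 ± 0.04), with a larger change in APOA4-KO. A smaller change there was seen for F12 (-0.67 ± 0.21), AHSG (-0.60 ± 0.02), PROC (-0.52 ± 0.04), ITIH3 (-0.48 ± 0.04) and F10 (-0.47 ± 0.05). At 48 h 23 were larger and 9 smaller, and PLG passed both limits (2.08%, beside 7.42%, 3.43% larger and 3.99% smaller), with a fitted 2.42 ± 0.79 (adjusted p = 0.022) that was 1.12 with the libraries at 0 counts raised to the floor. With library totals alone the split at 48 h was 12 and 16. Of all genes, 16.8% were larger and 15.4% smaller at 24 h and 18.6% and 17.8% at 48 h at the adjusted p. Past the adjusted p at 48 h were also SERPING1 (0.79 ± 0.11), SERPIND1 (0.65 ± 0.02), C3 (0.65 ± 0.02), SERPINA3 (0.63 ± 0.04), ITIH3 (0.60 ± 0.04) and AHSG (0.56 ± 0.02), with a larger change in APOA4-KO. The change was smaller there for HPX (-0.51 ± 0.10), SERPINC1 (-0.37 ± 0.06), ORM2 (-0.30 ± 0.05), ALB and FGG (both -0.27 ± 0.03), ORM1 (-0.26 ± 0.06), FGB (-0.20 ± 0.04), AFP (-0.17 ± 0.04) and HP (-0.10 ± 0.03).

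Known regulators of such genes were also measured. SOCS3, the feedback inhibitor of interleukin-6 signaling, stood at 1.57 ± 0.102 CPM (SD, n = 3) in HepG2 and 25.3 ± 1.36 CPM in APOA4-KO at 48 h (log2 fold change 4 ± 0.18), and at 24 h at 3.44 and 5.91 CPM. IL6ST, a signal-transducing receptor chain for interleukin-6, differed by 0.17, 0.81 and 0.34 at the 3 times and STAT3 by -0.42, 0.09 and 0.34. HNF4A differed by 0.16, 0.35 and 0.17. CEBPB differed by 0.06, 0.47 and 1.37 ± 0.30, of which only the 48 h value was past the adjusted p. Mean CEBPB in HepG2 went from 22.3 CPM before hypoxia to 9.84 CPM after 48 h. In APOA4-KO it was 23.2 CPM before hypoxia and 25.5 ± 10.6 CPM (SD, n = 3) after 48 h. The part of these regulators in the values of the plasma protein genes was not tested.

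A list of 65 other plasma protein genes, 57 of them tested, was tested in the same fit: 10 at 0 h, 11 at 24 h and 10 at 48 h passed both limits (17.5%, 19.3% and 17.5%, beside 4.31%, 7.77% and 13.6% of all genes), of which 7, 9 and 9 were higher in APOA4-KO. Among those higher at 48 h were MASP1, a protease of the lectin pathway (96.3 against 11.7 CPM, log2 fold change 3.04 ± 0.07), and CPN1 and CPB2, carboxypeptidases of plasma (both 2.02). Of those lower in APOA4-KO, 1 passed: GC, the carrier of vitamin D (0.353 against 1.53 CPM, -2.11 ± 0.36).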

How the data were processed

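RNA-seq libraries of HepG2 and APOA4-KO were analysed, 18 in 6 groups by line and time. The deposited counts are whole numbers per Ensembl gene without scaling. The authors also deposited FPKM values. Per the labels, fastp, HISAT2, StringTie and GRCh38.p13 were used. The study's methods name featureCounts for the counting, and the sources do not settle which tool made the table or whether strand was used. Totals ran from 76481820 to 91604947 counts, and the floor set for low counts covers counting error only.

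Genes were kept with filterByExpr, scaled with TMM and tested with edgeR 4.0.16 (R 4.3.3). DESeq2 1.42.0, limma 3.58.1 on log2(FPKM + 1) and log2(FPKM + 0.1), other scalings, filters and a replicate block were alternatives. There were 9 comparisons, and 2 more (48 h against 24 h) were added after the values were seen. The members, role groups, marker lists and the 65 other genes were chosen with earlier results of these data known. Named were the 3 genes of highest FPKM and, in each comparison, up to 6 per direction of largest change past both limits, where the group with more RNA averaged 100 counts or more. FGA, FGG and genes given to fill a role group were named after their values were seen. Coordinates and overlaps are from GENCODE v29 (GRCh38), and promoters from RefSeq. A few further items are not reported here.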

Additional observations from a re-analysis of the deposited data

Results flagged for a closer look

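Among the plasma protein genes, 3 differed between the lines in their change from 0 h past both limits of the edgeR test. The difference (APOA4-KO minus HepG2) in the 24 h change was 1.58 for HPX (adjusted p = 1e-09), with means of 44.1 and 17.8 CPM in HepG2 and 24.4 and 29.5 CPM in APOA4-KO at 0 h and 24 h. For FGB it was 1.2 (adjusted p = 1.2e-13), with means of 101 and 124 CPM in HepG2 and 294 and 834 CPM in APOA4-KO. For PLG the difference in the 48 h change was 2.42 (adjusted p = 0.022), and it missed the limits in 6 of 23 alternatives, among them those without HepG2 0 h replicate 3, HepG2 48 h replicate 1 or HepG2 48 h replicate 2. In HepG2 at 48 h, PLG had 0, 0 and 16 counts, and with the libraries at 0 raised to 12 counts the difference was 1.12.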

How the results depend on the processing

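Of 385 single values past the adjusted p, refitted 6918 times in all, 6473 refits kept direction and side of the limits, 397 kept the direction but missed them and 48 reversed. The reversals were those of 16 small values, each with library totals alone and with limma on log2(FPKM + 1) and log2(FPKM + 0.1), all 3 giving 1 value to 2 decimals unless stated. Between the lines they were AMBP at 24 h (0.01) and SERPINA1 (0) and A2M (-0.05) at 48 h. In HepG2 they were RBP4 (-0.01) and A2M (-0.02) from 0 h to 24 h and AMBP from 24 h to 48 h (0.02). In APOA4-KO from 0 h to 48 h they were AFP, VTN and ITIH2 (each -0.06), AMBP (-0.03) and PROC (-0.09, and -0.08 with log2(FPKM + 1)), and from 24 h to 48 h RBP4 and SERPINA1 (both -0.03) and C3 (-0.06). For the line difference at 48 h they were ITIH2 (-0.11) and PROC (-0.03). The cause was not tested. Of 132 counts of genes past both limits under other settings, 112 lay within 1.5 times the reported one.

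With limma on log2(FPKM + 1) the counts were 5 between the lines at 0 h, 6 at 48 h, 1 in HepG2 from 0 h to 24 h, 0 from 0 h to 48 h, 0 from 24 h to 48 h and 0 for the line difference at 48 h. With log2(FPKM + 0.1) they were 1, 0 and 1 for those changes in HepG2, 1 in APOA4-KO from 0 h to 48 h and 0 for the line difference at 48 h. Fitting the groups of a comparison alone gave 0 in HepG2 from 0 h to 48 h and 1 from 24 h to 48 h, 1 in APOA4-KO from 0 h to 48 h, and 4 and 0 for the line differences at 24 h and 48 h. DESeq2 gave 1 in APOA4-KO from 0 h to 48 h. Without the 5 genes of low or uneven counts, chosen after seeing the data, there were 0 in HepG2 from 0 h to 48 h, 1 from 24 h to 48 h and 0 for the line difference at 48 h.

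Leaving out 1 library at a time gave 9 to 10, 11 to 12 and 11 to 13 between the lines at 0 h, 24 h and 48 h. In HepG2 it gave 2 to 3 from 0 h to 24 h, 0 to 1 from 0 h to 48 h (0 without HepG2 0 h replicate 3, 48 h replicate 1 or 48 h replicate 2) and 1 to 3 from 24 h to 48 h (1 without 48 h replicate 2). In APOA4-KO it gave 3 to 6 from 0 h to 24 h (6 without 0 h replicate 2), 0 to 1 from 0 h to 48 h (1 without 48 h replicate 1) and 6 to 7 from 24 h to 48 h. For the line differences it gave 2 to 4 at 24 h (4 without HepG2 24 h replicate 1) and 0 to 1 at 48 h (0 without the 3 HepG2 libraries named for the 48 h change, each left out in turn).

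Libraries with the same number did not deviate together (correlations of -0.144 to 0.0511 over 45 pairs). With the replicate number as a block the counts were 9, 12 and 11 between the lines, 2, 1 and 2 in HepG2 (24 h and 48 h against 0 h, 48 h against 24 h), 3, 0 and 6 in APOA4-KO, and 2 and 1 for the line differences. Depth limits PLG, KLKB1, SAA1, SAA2 and ITIH4 most.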
